A study of Mus musculus with 4 samples.

Results

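The genes of AMP-activated protein kinase (AMPK), its upstream kinases and the coactivator gene Ppargc1a were followed across 4 arrays. The RNA came from cells labelled as mouse mast cells. The set held 10 genes chosen by name: the catalytic subunit genes Prkaa1 and Prkaa2, the scaffold subunit genes Prkab1 and Prkab2, the nucleotide-binding subunit genes Prkag1, Prkag2 and Prkag3, the upstream kinase genes Stk11 and Camkk2, and Ppargc1a. Every probe set that the platform annotation assigns to one of these genes alone was taken, which gave 27 of 45037 non-control probe sets. The genes are 10 of the 18193 that the annotation names on this array.

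The study asked which genes take part when berberine, a plant alkaloid, dampens inflammatory activation of mast cells. The cells were MC/9, an established mast cell line that the labels trace to liver of a (B6 X A/J)F1 mouse with an age of 13 days. The groups were cells given 10 microM berberine (BER) together with 500 microg/ml of anti-DNP IgE, an antibody to the hapten dinitrophenyl (BER+DNP), cells given 10 microM BER, cells given the antibody at 500 microg/ml (DNP), and untreated cells (control). The treatment label of BER+DNP names the combination without doses, so the doses given for it are those of the single treatments. All 3 treated groups were exposed for 24 h and then cultured for another 6 h, while no times are labelled for control. Each group held 1 array, so no difference below has a replicate error or a p-value, and the number of arrays limits the precision.

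AMPK is an enzyme of 1 catalytic, 1 scaffold and 1 nucleotide-binding subunit that senses a fall in cellular ATP. It is switched on when AMP or ADP binds the nucleotide-binding subunit and when LKB1, the product of Stk11, or the calcium-dependent kinase made from Camkk2 phosphorylates the activation loop of the catalytic subunit. Berberine blocks mitochondrial complex I and activates AMPK through this route in other cells. AMPK restrains lipid synthesis and cell growth and acts on PGC-1alpha, the product of Ppargc1a, which drives mitochondrial genes. The arrays measured transcripts and not phosphorylation, so they carry no reading of AMPK activity.

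The deposited values are log2 signals, and a probe set is a group of short oligonucleotides that reads a transcript near its 3' end. A probe set was counted if its mean over the 4 arrays reached 3.14, which is the median over the non-control probe sets. Of the 27 probe sets, 10 passed this filter, and they represented 7 genes: Prkab1, Prkab2, Prkag1, Prkag2, Prkag3, Stk11 and Camkk2. The other 17 probe sets included all those of Prkaa1, Prkaa2 and Ppargc1a. Nearest the filter were Camkk2 probe set 1424475_at just inside, with a mean of 3.23, and Camkk2 probe set 1424474_a_at just outside, with a mean of 2.97. Signals of different probe sets depend on their oligonucleotides, so a dim probe set does not show that a gene is silent, and levels were not ranked between genes.

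**Figure D1:**
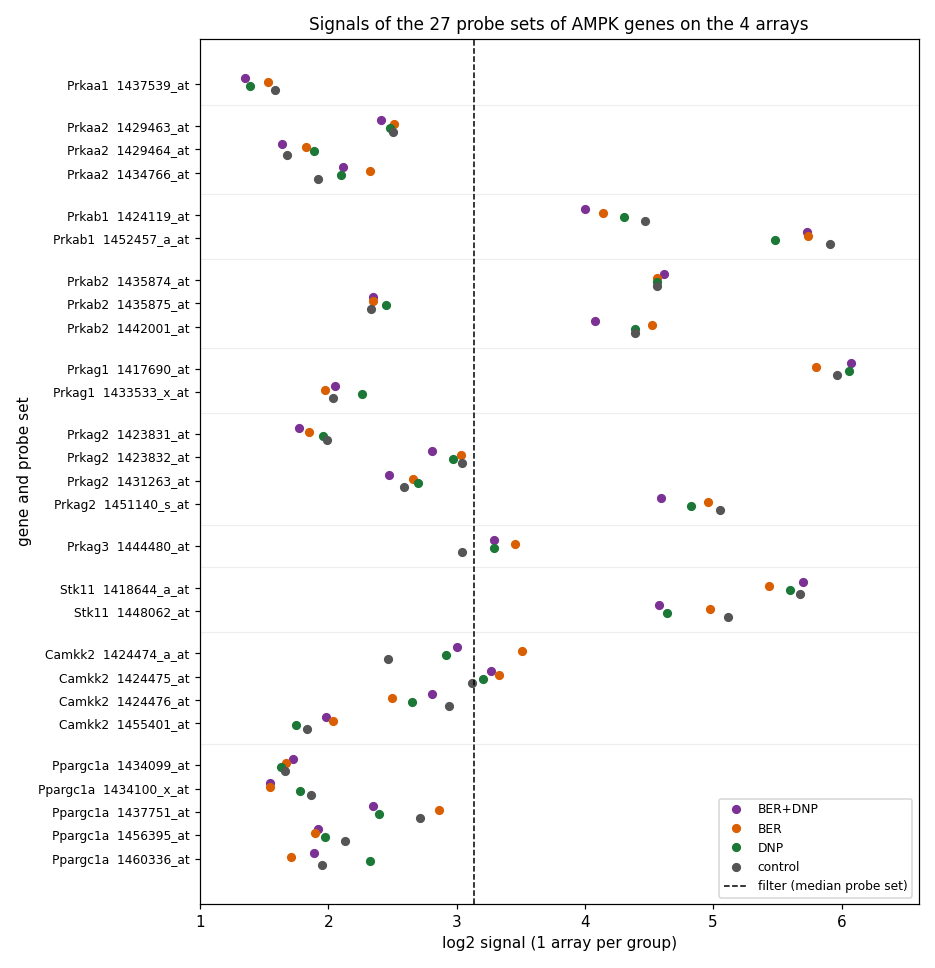
Log2 signal of each of the 27 probe sets (rows, by gene) on the 4 arrays, 1 point per array for BER+DNP, BER, DNP and control, with the filter of 3.14 as a dashed line. The 10 probe sets whose mean over the 4 arrays lies right of the line come from 7 genes, and the points of Prkaa1, Prkaa2 and Ppargc1a all lie left of it.

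The arrays resembled each other (Pearson's r across probe sets of 0.988 to 0.991 for pairs of arrays). The labelled cell type was only partly borne out: 6 of 12 mast cell markers with a probe set passed the filter. Kit, Cpa3, Fcer1a, Ms4a2, Tpsab1 and Mitf had means below it. Of the other marker lists, 3 of 6 markers of other blood cells, 7 of 8 epithelial markers and 7 of 8 fibroblast and muscle markers passed. The brightest mast cell marker was Gata2, with a mean of 5.87, and the brightest epithelial marker was Krt17, with 9.60. For other blood cells it was Epor (5.79), and for fibroblasts and muscle Des (5.77). These are different probe sets, so their levels are not directly comparable. Of all 18193 genes, each read by its brightest probe set like the markers, 12585 passed. Passing the filter therefore does not by itself mark a cell type. In such bulk RNA, fewer cells of a type and less transcript per cell cannot be told apart. The 18 probe sets of the hybridisation controls, which are added in equal amounts, differed between arrays by -0.22 to 0.27 over the comparisons made here. The control probe set at the 5' end of beta-actin was lower with berberine, with -0.57 for BER against control and -0.59 for BER+DNP against DNP, and that at the 3' end gave -0.31 and -0.22. For Gapdh the 5' control probe set gave 0.05 and -0.08, and the 3' one -0.03 and 0.02. The part of this in the differences below was not tested.

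The catalytic subunit genes gave only dim readings. Prkaa1 encodes alpha1, the form found in most tissues and the main one in blood cells, and lies on chromosome 15 (GRCm38.p6, 5143861 to 5181899). Its single probe set 1437539_at had log2 signals of 1.35 in BER+DNP, 1.53 in BER, 1.39 in DNP and 1.59 in control, which put its mean at the 1.97th percentile of non-control probe sets. Both arrays with the antibody read lower than both arrays without it, with -0.20 for DNP against control and -0.17 for BER+DNP against BER. Both differences are smaller than 1.2-fold. Prkaa2, the alpha2 gene known from muscle and liver, is on chromosome 4 (105029649 to 105109898). Its 3 probe sets lay between 1.64 and 2.51 on all arrays, at the 10.4th to the 32.7th percentile. The largest berberine difference among them was 0.41 in BER against control for 1434766_at, which read 2.33 in BER and 1.92 in control. In BER+DNP against DNP the same probe set gave 0.02.

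CpG-dense promoters are typical of genes that most cell types use, and CpG-poor ones of genes restricted to few tissues. RefSeq start regions of 300 bases, 250 before and 50 after a transcript start, were listed for all 10 genes, 12 regions in all, on GRCm38.p6. The regions of Prkaa1, Prkab1 and Ppargc1a are shown because the first gene has 1 dim probe set, the second has both of its probe sets above the filter, and the last has all of its 5 below it. Capitals mark CpG dinucleotides, and each sequence runs 5′ to 3′ on the strand of its gene as listed: chr15:5143611-5143910 on the plus strand for Prkaa1, chr5:116024379-116024678 on the minus strand for Prkab1 and chr5:51567676-51567975 on the minus strand for Ppargc1a.
Prkaa1: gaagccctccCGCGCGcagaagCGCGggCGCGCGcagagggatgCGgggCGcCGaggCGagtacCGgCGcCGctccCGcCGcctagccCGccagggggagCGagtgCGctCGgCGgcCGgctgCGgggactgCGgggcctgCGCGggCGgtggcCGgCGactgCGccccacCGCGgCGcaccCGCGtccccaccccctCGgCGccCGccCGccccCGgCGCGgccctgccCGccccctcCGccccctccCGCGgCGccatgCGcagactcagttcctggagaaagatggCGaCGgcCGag
Prkab1: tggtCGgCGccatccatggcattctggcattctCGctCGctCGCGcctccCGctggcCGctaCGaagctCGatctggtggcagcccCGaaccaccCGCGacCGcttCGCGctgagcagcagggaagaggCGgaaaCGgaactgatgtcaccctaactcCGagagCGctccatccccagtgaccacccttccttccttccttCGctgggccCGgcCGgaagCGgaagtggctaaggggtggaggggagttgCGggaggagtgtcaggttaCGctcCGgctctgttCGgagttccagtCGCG
Ppargc1a: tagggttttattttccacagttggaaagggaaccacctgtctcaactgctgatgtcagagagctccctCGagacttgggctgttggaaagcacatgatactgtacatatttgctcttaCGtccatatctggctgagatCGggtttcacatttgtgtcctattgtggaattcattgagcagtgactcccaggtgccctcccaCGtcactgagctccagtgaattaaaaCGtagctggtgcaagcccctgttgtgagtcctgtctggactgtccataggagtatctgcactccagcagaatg
The Prkaa1 region held 52 CpG, a number reached by 0.576% of 32841 mouse start regions. That of Prkab1 held 30, reached by 11.7%, and that of Ppargc1a 5, reached by 62.0%. Over the 12 regions the median was 27.5 CpG, against 7 over all regions. The annotated Ppargc1a gene extends to 52115853, well upstream of the region shown, so transcripts that begin elsewhere are not represented. The letters GGGCGG, known as the GC box, were searched on both strands and occurred in 8 of the 12 regions, against 35.7% of all regions. The median share of G and C was 66.7% over the 12 regions and 52.7% over all. The GC box holds only these letters, and the part of base composition in its count was not tested. The cyclic AMP response element TGACGTCA, which reads the same on both strands, occurred in 0 of 12 and in 1.79% of all regions. The shorter core TGACG, which lies within the full element, was searched on both strands and occurred in 4 of 12 and in 20.8% of all regions. These matches describe letters in these windows only.

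Both scaffold subunit genes had probe sets past the filter. Prkab1, the beta1 gene on chromosome 5 (116013586 to 116024503), was read by a pair of probe sets past the filter. Probe set 1424119_at had 4.00 in BER+DNP, 4.14 in BER, 4.31 in DNP and 4.47 in control. Both berberine arrays read lower than both arrays without berberine, with -0.33 for BER against control and -0.31 for BER+DNP against DNP, which is 1.25-fold and 1.24-fold. Probe set 1452457_a_at had 5.73 in BER+DNP, 5.74 in BER, 5.48 in DNP and 5.91 in control. Here the low array was DNP, so the berberine difference was -0.17 in BER against control but 0.25 in BER+DNP against DNP. The lower reading with berberine was therefore present in 1 of the Prkab1 probe sets in both pairs and was not shared by the other.

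Prkab2, the beta2 gene on chromosome 3 (97658211 to 97673812), had 2 probe sets past the filter. Probe set 1435874_at was nearly level, with 4.61 in BER+DNP, 4.56 in BER, 4.56 in DNP and 4.56 in control. Probe set 1442001_at had 4.08 in BER+DNP, 4.52 in BER, 4.39 in DNP and 4.39 in control. The array that stood low was BER+DNP, with -0.31 against DNP and -0.44 against BER, a difference that 1435874_at did not share (0.05 and 0.05). A further Prkab2 probe set, 1435875_at, lay below the filter at 2.33 to 2.45.

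The nucleotide-binding subunit genes differed in how well they were read. Prkag1, the gamma1 gene on chromosome 15 (98812797 to 98831508), had a probe set at the 94.7th percentile. It read 6.07 in BER+DNP, 5.80 in BER, 6.06 in DNP and 5.96 in control, so only BER stood slightly low, with -0.16 against control. Its other probe set, below the filter, lay between 1.98 and 2.27. Prkag2, the gamma2 gene on chromosome 5 (24862735 to 25106282), passed with 1 of 4 probe sets, 1451140_s_at, whose suffix s marks oligonucleotides shared by several transcripts. It read 4.59 in BER+DNP, 4.96 in BER, 4.83 in DNP and 5.06 in control. BER+DNP was lowest and control highest, with differences of -0.10 in BER against control, -0.24 in BER+DNP against DNP and -0.46 in BER+DNP against control. All 3 dimmer Prkag2 probe sets were also lower in BER+DNP than in control, with differences of -0.12 to -0.24. Prkag3, the gamma3 gene known from skeletal muscle, lies on chromosome 1 (74738922 to 74749471). Its probe set read 3.29 in BER+DNP, 3.45 in BER, 3.29 in DNP and 3.05 in control. The control value lay below the filter, and the difference of 0.41 in BER against control, the largest upward one among the 10 probe sets, was 0.00 in BER+DNP against DNP.

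Stk11, which encodes the kinase LKB1, is on chromosome 10 (80115767 to 80130679) and had both its probe sets past the filter. Probe set 1418644_a_at had 5.70 in BER+DNP, 5.44 in BER, 5.60 in DNP and 5.68 in control. Probe set 1448062_at had 4.58 in BER+DNP, 4.98 in BER, 4.64 in DNP and 5.12 in control. In the second, both arrays with the antibody read lower than both without it, with -0.48 for DNP against control and -0.40 for BER+DNP against BER. The first gave -0.08 and 0.26 in the same comparisons, so the antibody difference was not shared between the Stk11 probe sets.

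Camkk2, the calcium-dependent AMPK kinase gene on chromosome 5 (122718380 to 122779522), gave the largest difference of all 27 probe sets, in a probe set that its others did not match. Probe set 1424474_a_at had 3.00 in BER+DNP, 3.51 in BER, 2.92 in DNP and 2.47 in control. It was 2.05-fold higher in BER than in control (log2 difference 1.04) but gave 0.09 in BER+DNP against DNP, and its signal exceeded 3.14 on the BER array alone. The probe set past the filter, 1424475_at, had 3.27 in BER+DNP, 3.33 in BER, 3.20 in DNP and 3.12 in control, with differences of 0.21 for BER against control and 0.06 for BER+DNP against DNP. The remaining 2 went opposite ways in BER against control, with -0.45 for 1424476_at and 0.20 for 1455401_at, and gave 0.16 and 0.24 in BER+DNP against DNP.

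Ppargc1a, the PGC-1alpha gene on chromosome 5 (51454249 to 52115853), was dim throughout. Its 5 probe sets lay between 1.54 and 2.86 on all arrays, at the 7.82th to the 35.7th percentile. The brightest, 1437751_at, had 2.35 in BER+DNP, 2.86 in BER, 2.39 in DNP and 2.71 in control, lower on both arrays with the antibody. Another, 1460336_at, had 1.89 in BER+DNP, 1.71 in BER, 2.32 in DNP and 1.95 in control, so here DNP read highest. No Ppargc1a probe set reached 1.5-fold in any comparison.

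Across the 10 probe sets past the filter, berberine gave no difference of 1.5-fold. In BER against control 0 of 10 reached it in either direction, where 1.99% of all 22519 probe sets past the filter did, and 0 reached 2-fold, where 0.0844% did. In BER+DNP against DNP 0 of 10 reached 1.5-fold, where 1.24% did, and 0 reached 2-fold, where 0.0222% did. With shares this small in the background, 0 of 10 does not set these genes apart. The largest difference was 1.33-fold (Prkag3, higher) for BER against control and 1.24-fold for BER+DNP against DNP (Prkab2 1442001_at, lower). The median size of the difference, whatever its sign, was 0.17 for the members and 0.14 for all probe sets in BER against control. For BER+DNP against DNP these were 0.08 and 0.13. At 1.2-fold, 1 member was higher in BER against control (background 11.3%) and 1 lower (12.1%), and in BER+DNP against DNP 0 were higher (8.86%) and 2 lower (11.5%). Both berberine pairs, which share no array, gave values below 0 for 3 of the 10 (Prkab1 1424119_at, Prkag2 and Stk11 1448062_at), against 28.9% of all probe sets, and above 0 for 2, against 25.5%. The difference of the berberine differences (with the antibody minus without it) had a median of 0.04 over the 10 probe sets and -0.01 over all.

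The antibody likewise gave no member difference of 1.5-fold. In DNP against control 0 of 10 reached 1.5-fold in either direction (background 1.49%) and 0 reached 2-fold (0.00888%). In BER+DNP against BER 0 of 10 reached 1.5-fold (0.986%) and 0 reached 2-fold (0.00888%). At 1.2-fold, 0 were higher in DNP against control (12.6%) and 2 lower (10.4%), namely Prkab1 1452457_a_at at -0.43 and Stk11 1448062_at. In BER+DNP against BER, 1 was higher (9.93%), the Prkag1 probe set at 0.27, and 3 were lower (9.49%), Prkab2 1442001_at, Prkag2 at -0.37 and Stk11 1448062_at. Both antibody pairs gave values below 0 for 4 of the 10, against 26.2% of all probe sets, and above 0 for 1, against 28.8%.

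The combined treatment against control showed the largest member difference past the filter, 1.46-fold lower for Stk11 1448062_at (-0.54). Again 0 of 10 reached 1.5-fold (background 1.78%) and 0 reached 2-fold (0.0711%). At 1.2-fold 0 were higher (11.8%) and 4 lower (11.9%): Stk11 1448062_at, Prkab1 1424119_at at -0.47, Prkag2 at -0.46 and Prkab2 1442001_at at -0.31. For Stk11, Prkab1 and Prkab2 the gene's other probe set past the filter gave 0.02, -0.18 and 0.05. This comparison shares its arrays with those above and is no separate evidence. Over the 15 differences for which Prkab1, Prkab2 and Stk11 each had 2 probe sets past the filter, both had the same sign in 6, opposite signs in 7, and 1 of them was exactly 0 in 2. The median gap between the 2 probe sets was 0.29, and 20 of the 30 single differences were smaller than this gap. These differences come from 3 genes on the same 4 arrays, so they are not independent of each other.

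**Figure D2:**
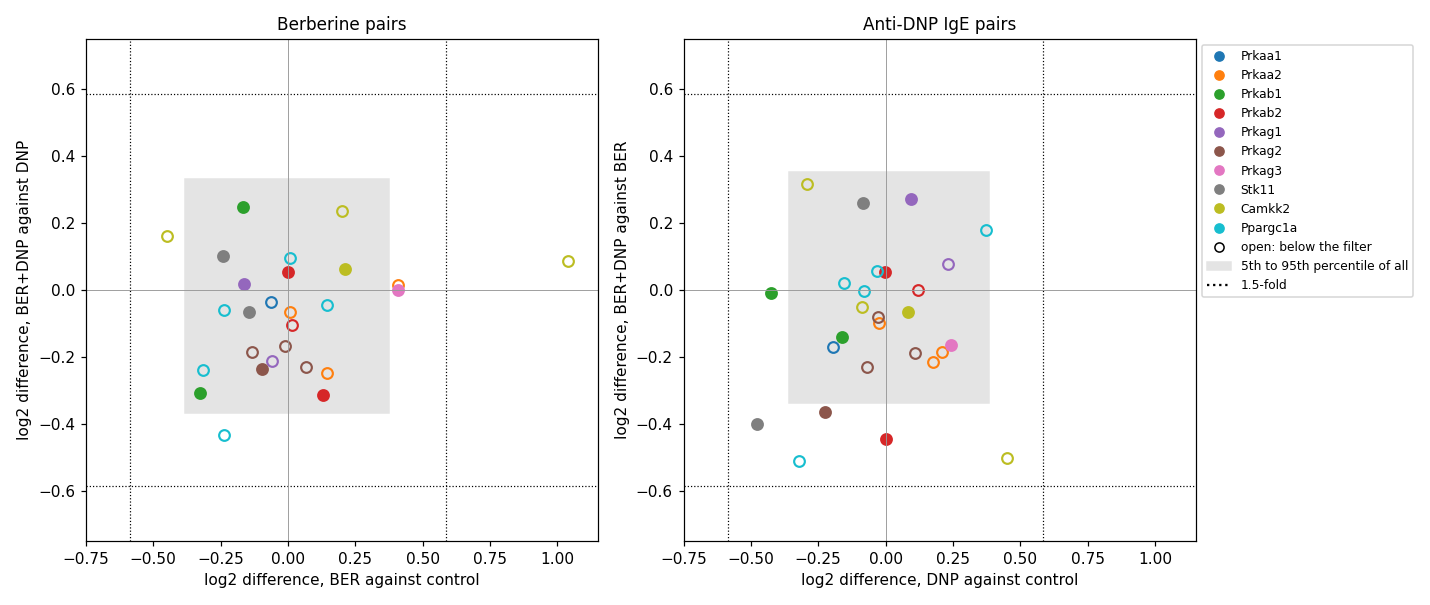
Log2 differences of the 27 probe sets, with BER against control on the horizontal axis and BER+DNP against DNP on the vertical axis of the left panel, and the same for the antibody in the right panel (DNP against control, then BER+DNP against BER). Filled points passed the filter, grey boxes span the 5th to the 95th percentile of all probe sets past it, and dotted lines mark 1.5-fold. The open Camkk2 point at 1.04 is the only one beyond 1.5-fold.

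Among genes read by their brightest probe set, Prkag2 varied most over the 4 arrays of the members past the filter. The genes with the most similar pattern, by Euclidean distance between log2 signals centred on each gene's mean over the 4 arrays, were Nfam1 (distance 0.04), Taf1b (0.04), Nmt2 (0.04) and Ankrd36 (0.05). With 4 arrays such likeness is common: 60 of 12584 other genes lay within 0.1 and 636 within 0.2.

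Genes around AMPK were described in 8 lists of 121 genes, of which 94 passed the filter when read by the brightest probe set. In BER against control 3 of the 94 were at least 1.5-fold higher, where 1.01% of 12585 genes were, and 0 lower, where 0.985% were. In BER+DNP against DNP 0 were higher (0.509%) and 1 lower (0.699%). The 3 higher genes, named after their values were seen, were Idh3a, of the citric acid cycle (0.86), the muscle and blood transcription factor gene Mef2c (0.74), and the folliculin gene Flcn (0.60). In BER+DNP against DNP they gave 0.30, 0.26 and 0.00. Another Idh3a probe set past the filter gave 0.08 and 0.10, and the other Mef2c probe sets past it gave 0.02 to 0.31 and -0.43 to 0.32. The other Flcn probe sets, all below the filter, gave -0.30 to 0.16 and -0.004 to 0.006. The lower gene was Cpt1a, which carries fatty acids into mitochondria, with 3.21 in BER+DNP, 3.35 in BER, 3.92 in DNP and 3.22 in control. Only the DNP array stood high for this Cpt1a probe set. It gave 0.70 for DNP against control and -0.71 for BER+DNP against DNP, comparisons that share that array. The other Cpt1a probe sets, below the filter, gave -0.22 and -0.10 for DNP against control. For BER+DNP against DNP they gave 0.10 and -0.04.

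The LKB1 complex and other upstream kinases had medians of 0.07 for BER against control and 0.07 for BER+DNP against DNP over 4 genes, where all genes had 0.00 and -0.02. With the median over all probe sets of each gene in place of its brightest, this list had -0.09 and -0.18. Cab39l, of the family of LKB1 scaffold proteins, gave 0.24 and 0.25, and Strada, which encodes the pseudokinase that activates LKB1, 0.09 and 0.03. The other Cab39l probe sets, all below the filter, gave -0.18 to 0.01 and -0.15 to 0.08. The other Strada probe sets past the filter gave -0.14 and -0.60, the second of these past 1.5-fold, and -0.15 and 0.13. The AMPK-related kinases, which LKB1 also phosphorylates, had medians of 0.09 and -0.06 over 10 genes. Among them Snrk gave -0.19 and -0.23, Brsk2 0.22 and 0.10, and Sik2 -0.04 and -0.32. A second Brsk2 probe set of like brightness gave -0.33 and 0.28, and a second Snrk probe set, below the filter, 0.31 and 0.29. The folliculin complex and the sestrins, which link AMPK to growth control, had 0.16 and 0.09 over 4 genes. Sesn1 gave 0.25 and 0.30, Sesn2 0.08 and 0.16, and Sesn3 0.07 and 0.01. The other Sesn1 probe sets, all below the filter, gave -0.31 to 0.00 and -0.12 to 0.00. A dimmer Sesn2 probe set past the filter gave 0.04 and 0.24, and a Sesn3 probe set below it 0.15 and -0.15.

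Genes of AMPK substrates and their partners lay close to the median of all genes as groups. Metabolic substrates had medians of -0.01 for BER against control and 0.04 for BER+DNP against DNP over 20 genes. The histone deacetylase gene Hdac5 gave 0.35 and 0.31, the triglyceride lipase gene Pnpla2 0.36 and 0.22, and Pfkfb3, a regulator of glycolysis, -0.13 and -0.30. A dimmer Pfkfb3 probe set past the filter gave -0.34 and 0.37. Substrates and partner genes in growth control and autophagy, among them Mlst8 and Rheb, had -0.03 and -0.01 over 17 genes. In this list the lysosomal transcription factor gene Tfeb gave -0.20 and -0.20. The autophagy kinase gene Ulk2 gave 0.44 and 0.19, and Becn1, another autophagy gene, -0.36 and -0.08. The other Ulk2 probe sets, all below the filter, gave -0.51 to -0.09 and -0.07 to 0.19. The other Becn1 probe sets past the filter gave 0.07 and -0.28, and 0.12 and 0.19. No gene of either list reached 1.5-fold by its brightest probe set in these comparisons.

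The partners and targets of PGC-1alpha had mixed signs. Its relatives and partners had medians of 0.12 for BER against control and 0.03 for BER+DNP against DNP over 14 genes. Esrra, the nuclear receptor gene through which PGC-1alpha acts on mitochondrial genes, had 7.96 in BER+DNP, 7.97 in BER, 7.63 in DNP and 7.59 in control. Both berberine arrays read higher than both others, by 0.39 and 0.33, although a dimmer Esrra probe set past the filter gave 0.11 and -0.13. Pprc1, which encodes a PGC-1-related coactivator, went the other way, with 5.65 in BER+DNP, 5.40 in BER, 5.94 in DNP and 5.92 in control, differences of -0.52 and -0.29. The list of PGC-1alpha and PPAR targets had -0.06 and -0.03 over 14 genes, with the carrier gene Ucp3 at 0.38 and 0.39 and the superoxide dismutase gene Sod2 at -0.38 and -0.29. A second Ucp3 probe set of like brightness gave 0.08 and -0.06, and a dimmer Sod2 probe set past the filter gave -0.14 and -0.46. Genes of adenylate handling, which set the nucleotide balance AMPK senses, had 0.07 and -0.14 over 11 genes, with Aprt, which salvages adenine, at -0.47 and -0.19, the mitochondrial creatine kinase gene Ckmt1 at -0.21 and -0.18, and the adenosine kinase gene Adk at -0.08 and -0.08. A dimmer Aprt probe set past the filter gave -0.01 and -0.15. Dimmer probe sets past it gave -0.28 and -0.19 for Ckmt1, and -0.09 and 0.00 for Adk. Over all 94 genes, 31 lay above 0 in both berberine pairs and 25 below 0 in both. These are 33.0% and 26.6%, against 25.4% and 29.7% of all genes.

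**Figure D3:**
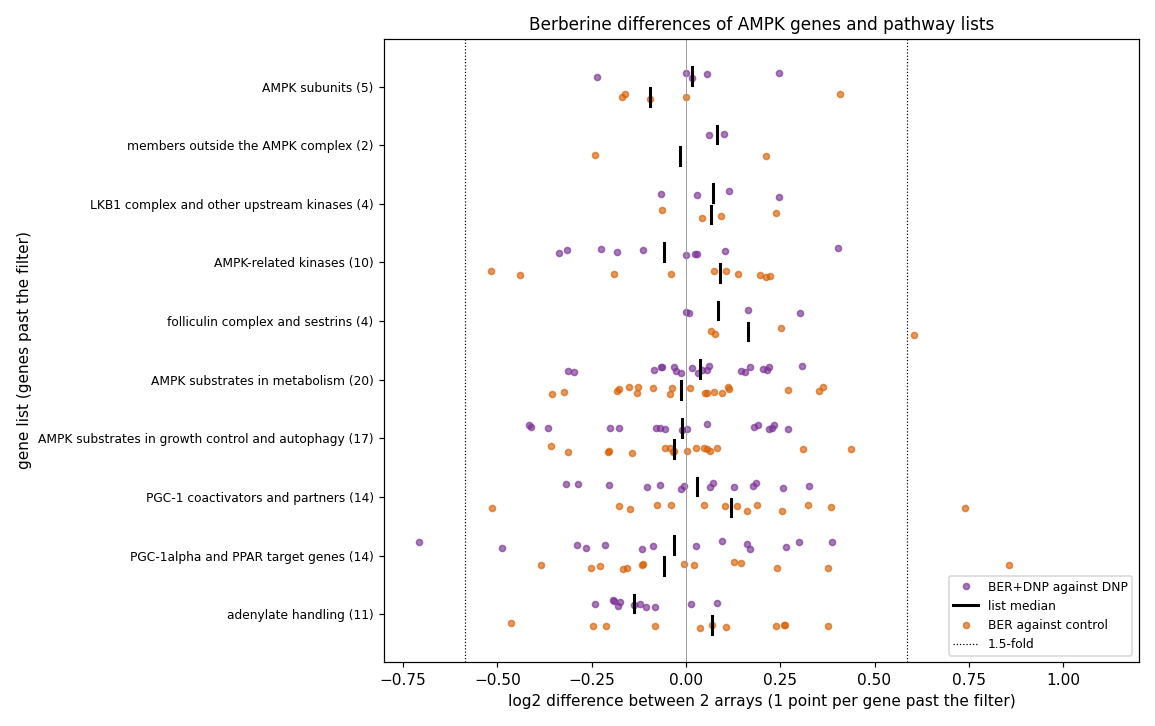
Log2 differences of single genes (points, 1 per gene past the filter, read by its brightest probe set) for BER+DNP against DNP (purple) and BER against control (orange), by gene list, with black bars at the list medians and dotted lines at 1.5-fold. The AMPK genes all lie inside the dotted lines, and 4 genes of the other lists lie outside them in 1 comparison each.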

How the data were processed

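Total RNA of 4 MC/9 cultures was measured on Affymetrix mouse whole-genome arrays. The authors used Affymetrix Expression Console, per the submitters' processing notes, and the deposited values were taken as log2 signals because of their range; the summary algorithm and normalization are not given in the labels used here, nor is any detection call. Array medians ran between 3.13 and 3.15, so the values were used as deposited. Between 1.67% and 2.14% of probe sets had exactly equal values on a pair of arrays.

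After removal of 64 control probe sets, 45037 remained. The platform annotation of 2016 gave 1 symbol to 34945, several to 932 and none to 9160, and 34741 matched RefSeq genes of GRCm38.p6 by identifier with 0 symbols updated. Coordinates and start regions are RefSeq's. Genes were read by their brightest probe set. Differences of log2 signals were formed for 5 pairs of arrays with pandas 2.3.3, and probe sets or genes at least 1.5-fold apart were counted beside all those past the filter. Up to 3 genes of each list were named, those with the largest smaller-of-the-2 berberine difference among genes going the same way in both pairs, and 4 genes by likeness to Prkag2. The members and lists were chosen with earlier results of these data known. The steps were tested on simulated data. Alternatives were quantile normalization, 32 or 100 added to the linear signals, no filter, a filter at the 75th percentile, no probe sets with suffix x or s, and the median of all probe sets of a gene. A planned comparison of subunit proteins was not made because no protein sequences were used here.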

Additional observations from a re-analysis of the deposited data

How the results depend on the processing

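The counts of 0 member probe sets at least 1.5-fold apart were repeated under 6 other settings, and with 2-fold and 1.2-fold in place of 1.5-fold. Of these 40 alternative counts 34 were again 0. Most of them could hardly be otherwise, so the 34 are no measure of robustness. A higher fold, a higher filter or fewer probe sets takes counts away, and an added offset shrinks log2 differences. Quantile normalization, which can move differences either way, gave 0 in each comparison. Without the filter 1 probe set was counted in BER against control, Camkk2 1424474_a_at, because dim probe sets then enter. At 1.2-fold the counts were 2 in BER against control, 2 in BER+DNP against DNP, 2 in DNP against control, 4 in BER+DNP against BER and 4 in BER+DNP against control. The median difference of the berberine differences and the medians of the 8 lists stayed within 1.2-fold of the values reported in all 6 and 112 alternatives run. This tolerance, 0.26 in log2, is wider than each of the medians reported, so even a change of sign can pass it. Added offsets also shrink differences, so these numbers are no measure of robustness either. For single member genes 360 of 390 alternative values stayed within 1.2-fold. The other 30 came from added offsets or from the median of all probe sets of a gene. None of these genes had reached 1.5-fold. A gene read by its brightest probe set keeps its value when only the filter changes. Without suffix x or s, only Prkag2 was read by another probe set. Many of the 360 therefore could not differ, and they are no measure of robustness. The sign was the other one in 1 of the 6 (-0.07 without the filter), in 15 of the 112 and in 19 of the 390. The list of upstream kinases changed sign in both berberine pairs with the median of all probe sets of a gene, at -0.09 and -0.18. No paired analysis was possible because the labels give no replicate numbers that the groups share, each group being 1 array. Dim signals limit Prkaa1, Prkaa2, Ppargc1a and most of Camkk2, and a reading near the filter can hide a real difference.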
